A study of Mus musculus with 12 samples.

Results

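The complement genes followed here were 9 mouse genes that stromal cells such as fibroblasts can express: C3, C4b, C1ra, C1s1, Cfb, Serping1, Cd55, Cd59a and C3ar1. They were chosen by gene symbol through their Ensembl identifiers, with no threshold on a measured value. Earlier results of these data were known at that point, so the choice was not blind to them. The members are 9 of the 35727 genes in the count table. All 9 were among the 15506 genes that passed the filter on low counts. RNA was sequenced from cultured neonatal mouse cardiac fibroblasts and from the induced endothelial cells (iECs) made from them with the transcription factors Sox17 and Erg, to ask which genes the conversion changes and when. There were 6 groups of 2 libraries each: control cells labelled fibroblast and Sox17-Erg cells labelled iEC, each with a Day 3, a Day 7 and a 4-week collection. The fibroblasts came from pooled hearts of pups aged Day 0 to Day 3, from which PECAM1-positive endothelial cells had been depleted and THY1-positive cells selected, and the labels give EGM2, an endothelial growth medium, for all groups. Sox17 and Erg were delivered by retroviruses on a pMX-puromycin backbone. The control columns are headed PMX, and which virus the control cells received is not given in the sources used here.

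Complement is a cascade of secreted proteases and substrates that marks surfaces for removal. The C1 complex, in which C1r and C1s are the proteases, cleaves C4 and C2 to start the classical pathway, while factor B serves the alternative pathway, and both pathways split the central component C3. Fluid and membrane inhibitors hold the cascade back on the body's own cells, and the C3a fragment signals through its receptor C3aR. Liver is the main source of the plasma proteins, but fibroblasts and other stromal cells also make several of them and raise them in response to inflammatory cytokines.

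The libraries held between 19011635 and 41240449 counts. Levels are given as CPM, counts relative to library sizes scaled by the trimmed mean of M-values (TMM), and differences as log2 fold changes with their standard error (SE). As a check of the labels, Sox17 stood between 431.7 and 1036 CPM in the 6 Sox17-Erg libraries and at no more than 0.416 CPM in the 6 control libraries, and Erg between 17.1 and 65.2 against at most 2.27 CPM. Fibroblast markers were present in both treatments: the CPM of 10 of them summed to between 16293 and 39927 in control and between 12449 and 41711 in Sox17-Erg libraries, while 10 endothelial markers summed to between 20.9 and 61.4 against between 314 and 774. Cdh5 alone held between 148 and 496 CPM in the Sox17-Erg libraries. Of the endothelial markers 9 were tested, and edgeR called 4, 5 and 7 higher at the 3 time points, beside 7.19%, 9.48% and 11.9% of all genes. At 4 weeks both Sox17-Erg fibroblast sums (12449 and 13102) lay below both control sums (16293 and 19920). edgeR called 1, 3 and 4 of the fibroblast markers lower at the 3 time points, beside 5.13%, 7.93% and 11.0% of all genes. It called 0, 2 and 2 of them higher, beside 7.19%, 9.48% and 11.9%. Dcn and Lum were among those lower and Postn among those higher at Day 7 and 4 weeks. Bulk libraries cannot tell fewer cells of a type from less RNA per cell. Nothing in the labels says that the 2 libraries of a group came from separate isolations, so the p-values measure only the spread between these libraries.

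The promoters are shown for 4 members that stand for different patterns: C3, which had the largest fitted difference of the 9 at Day 7 and 4 weeks, C1s1, lower at every time point, Cd55, which passed the test at Day 7 alone, and the receptor C3ar1, which passed at none. Each line holds the 250 bases upstream of the RefSeq start, 5′ to 3′ on the strand of the gene. All 4 genes lie on the minus strand of GRCm38.p6, and the windows are chr17:57228137-57228386 for C3, chr6:124542360-124542609 for C1s1, chr1:130462745-130462994 for Cd55 and chr6:122856158-122856407 for C3ar1. RefSeq windows were found for 6 of the 9 members, and C4b, Cfb and Serping1 were not among them. Capitals mark matches on either strand to 6 searched motifs, and a window wholly in lower case holds none.

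C3 promoter window: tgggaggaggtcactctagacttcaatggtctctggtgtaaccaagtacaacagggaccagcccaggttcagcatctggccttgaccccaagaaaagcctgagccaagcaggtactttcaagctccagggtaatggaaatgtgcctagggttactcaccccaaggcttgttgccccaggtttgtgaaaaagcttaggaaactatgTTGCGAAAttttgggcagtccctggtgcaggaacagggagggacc
C1s1 promoter window: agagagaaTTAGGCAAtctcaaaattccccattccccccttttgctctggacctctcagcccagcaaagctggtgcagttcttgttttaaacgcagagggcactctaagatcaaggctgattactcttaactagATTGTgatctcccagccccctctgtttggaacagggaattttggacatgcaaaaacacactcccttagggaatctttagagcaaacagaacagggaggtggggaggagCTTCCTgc
Cd55 promoter window: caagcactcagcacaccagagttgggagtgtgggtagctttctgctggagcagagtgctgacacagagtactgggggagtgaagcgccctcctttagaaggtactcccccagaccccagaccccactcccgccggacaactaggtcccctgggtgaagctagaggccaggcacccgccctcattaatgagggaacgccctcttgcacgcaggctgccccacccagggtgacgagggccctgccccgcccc
C3ar1 promoter window: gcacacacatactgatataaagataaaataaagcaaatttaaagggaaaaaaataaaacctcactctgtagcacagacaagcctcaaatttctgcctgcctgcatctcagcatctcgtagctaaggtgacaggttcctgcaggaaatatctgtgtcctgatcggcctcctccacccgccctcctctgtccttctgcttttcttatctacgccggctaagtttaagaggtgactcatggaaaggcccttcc

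The motifs were TTGCNNAA for CCAAT/enhancer-binding proteins, TTCNNNGAA for STAT factors, the interferon-stimulated response element (ISRE), ATTGT for SOX factors, and AGGAAG and CGGAAG for ETS factors, the family of Erg. The C3 window held TTGCNNAA at -45 from the start, a motif present in 9.56% of all 32851 RefSeq windows of this length. The C1s1 window held the same motif at -242, ATTGT at -116 and AGGAAG at -8 (counted from the start at 124542359), and the last 2 motifs were present in 27.7% and 29.5% of all windows. The Cd55 and C3ar1 windows held none of the 6. The STAT motif, in 7.02% of all windows, CGGAAG, in 13.6%, and the ISRE, in 2.98%, had no match in the windows shown. Of the windows not shown, that of another RefSeq start of C1s1, at 124542321, held ATTGT at -154 and AGGAAG at -46 but no TTGCNNAA, that of C1ra held ATTGT at -235 and that of Cd59a the ISRE at -187 and ATTGT at -227. These matches describe the letters in the windows and say nothing of binding.

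The levels per length put Serping1, the gene of C1 inhibitor, above the other members in every group. In control cells at Day 3 it had a mean of 269.5 CPM per kilobase of exon (kb), ahead of C1ra at 9.77, C1s1 at 5.82, Cd59a at 5.48, C3 at 3.69, Cd55 at 3.596, C3ar1 at 2.58, C4b at 0.282 and Cfb at 0.215 CPM per kb. The libraries of C1s1 and Cd59a, of Cd59a and C3, of C3 and Cd55 and of C4b and Cfb overlapped, so the order of these neighbours was not resolved. By 4 weeks in control cells C3 had moved to the place behind Serping1, with 551 against 1005 CPM per kb and no overlap between them, followed by C1ra at 119 and C1s1 at 105, whose libraries overlapped. Cd55 at 11.96, Cd59a at 7.78, C4b at 6.26, Cfb at 4.54 and C3ar1 at 0.554 CPM per kb came last, with overlap between Cd59a and C4b and between C4b and Cfb. C3 then ranked 73 of 15451 genes by level per length and held between 0.260% and 0.305% of all counts. In Sox17-Erg cells at 4 weeks C3 stood at 32.4 CPM per kb, rank 1283, and its libraries overlapped those of C1ra at 24.1 CPM per kb.

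**Figure D1:**
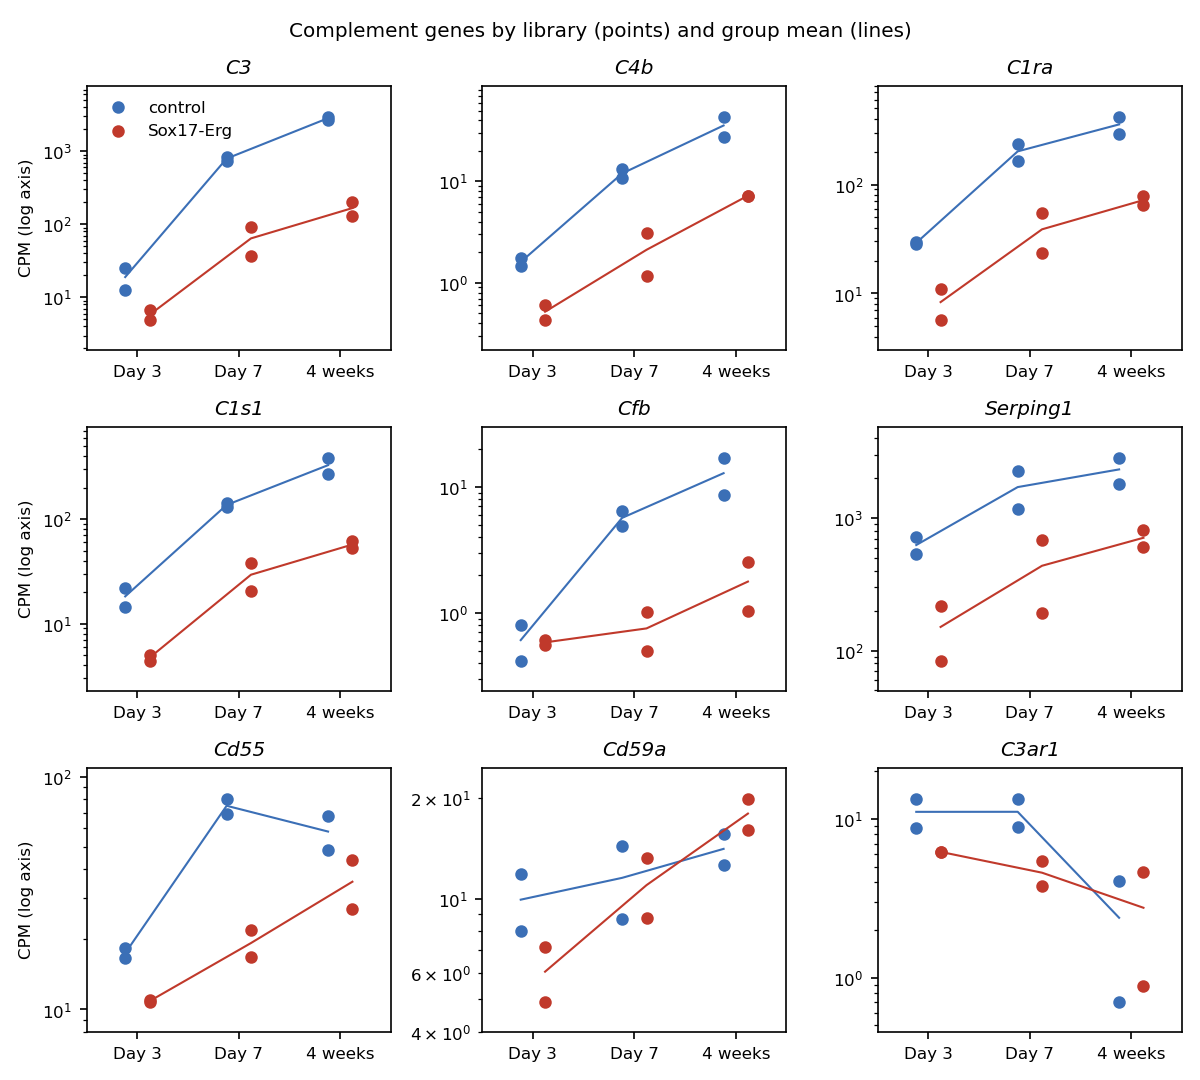
CPM (log axis, its range set for each gene) of the 9 complement genes in the 12 libraries at Day 3, Day 7 and 4 weeks. Points are libraries and lines join the group means, control in blue and Sox17-Erg in red. For C3, C4b, C1ra, C1s1, Serping1 and Cd55 both red points lie below both blue points at each time point, and for Cd59a and C3ar1 they do not.

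Sox17-Erg cells held less C3, C1ra and C1s1 RNA than control cells at all 3 time points and less C4b and Cfb RNA at Day 7 and 4 weeks, and none of the 9 members passed the test as higher at any time point, beside 7.19%, 9.48% and 11.9% of all genes tested. With edgeR's quasi-likelihood test and Benjamini-Hochberg adjusted p under 0.05, 3 of 9 members were lower at Day 3 (C3, C1ra and C1s1), beside 5.13% of all genes tested. The Day 7 comparison had 6 of 9 lower (C3, C4b, C1ra, C1s1, Cfb and Cd55), beside 7.93%, and the 4-week comparison 5 of 9 (C3, C4b, C1ra, C1s1 and Cfb), beside 11.0%. Over the 9 members the log2 fold changes had medians of -1.63, -2.22 and -2.30 at the 3 time points, beside 0.01, 0.01 and -0.01 over all genes tested. Both Sox17-Erg libraries lay below both control libraries for 8 members at Day 3, 8 at Day 7 and 7 at 4 weeks, beside 29.9%, 28.8% and 32.4% of all genes. For 6 members this held at all 3 time points, beside 13.6% of all genes. Cd59a alone lay above control in both libraries at 4 weeks, beside 30.3%. For the 8 members other than Cd59a, both Sox17-Erg libraries of 4 weeks lay below both control libraries of Day 7, beside 30.9%.

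The Day 3 count moved with single libraries, and so did that over all genes. It fell to 0 of 9 without replicate 1 of the control or of the Sox17-Erg group at Day 3, and to 1 without control replicate 2, while it rose to 5 without either Sox17-Erg library of Day 7. In these fits 0.733%, 0.410% and 1.03% of all genes were called lower, and then 5.49% and 6.19%. Same-numbered libraries deviated together within each time point. With the number as a block within time points, 7 members passed at Day 3, 8 at Day 7 and 7 at 4 weeks, all lower, beside 10.4%, 13.3% and 15.5% of all genes lower in that fit.

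**Figure D2:**
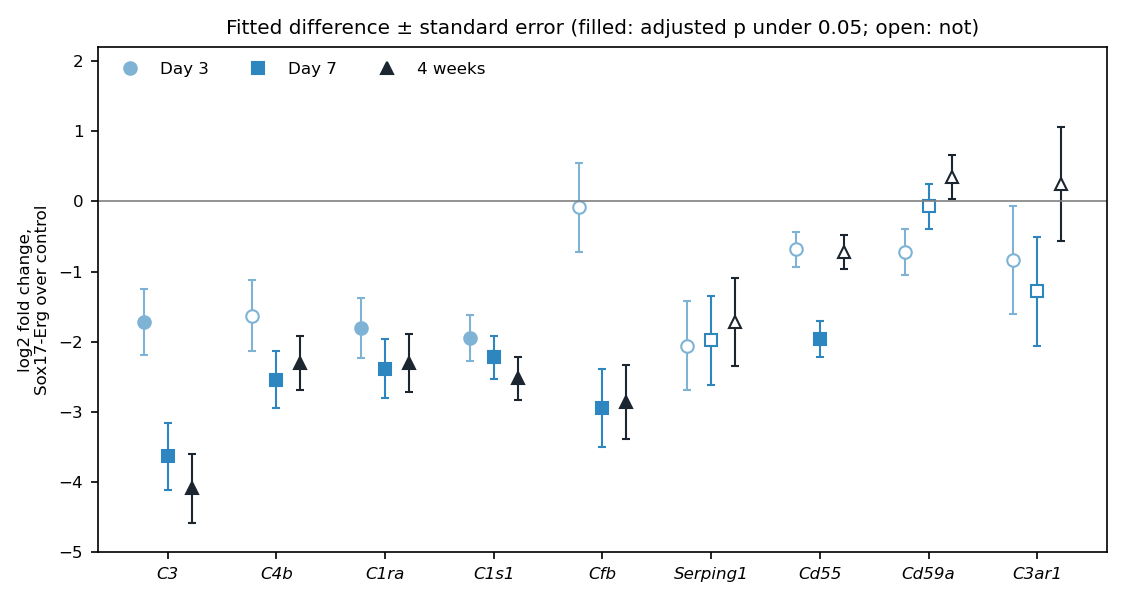
Fitted log2 fold change of Sox17-Erg over control for each member at the 3 time points, from edgeR over all 12 libraries. Bars are 1 SE, filled symbols have an adjusted p under 0.05 and unfilled ones do not. C3 lies at -1.72 at Day 3 and at -4.09 at 4 weeks, while Cd59a and C3ar1 have unfilled symbols at all 3 time points.

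C3 (ENSMUSG00000024164, chr17:57203970-57228136, minus strand, GENCODE M21 on GRCm38 as for all members, each annotated as protein coding) encodes the component on which all pathways converge. At Day 3 it had 25.3 and 12.6 CPM in the control libraries and 6.63 and 4.91 in the Sox17-Erg libraries. At Day 7 the values were 741 and 846 against 36.9 and 91.4 CPM, and at 4 weeks 2683 and 2988 against 129 and 205 CPM. The groups did not overlap at any time point, and the Sox17-Erg libraries at 4 weeks were still below the control libraries of Day 7. The log2 fold change was -1.72 ± 0.47 (SE, n = 2 libraries per group) at Day 3 with an edgeR adjusted p of 0.046, -3.63 ± 0.48 at Day 7 with 0.0014 and -4.09 ± 0.49 at 4 weeks with 0.00052. These were 3.30-fold, 12.4-fold and 17.0-fold lower levels. Leaving out single libraries moved the log2 value of C3 between -2.17 and -1.13 at Day 3, the latter without control replicate 1, and between -4.47 and -3.12 at Day 7, the former without Sox17-Erg replicate 2. The Day 3 call was lost without any library of Day 3 and without any other library outside Sox17-Erg at Day 7, with adjusted p up to 0.236, and the block gave 0.013.

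C1ra (ENSMUSG00000055172, chr6:124512405-124523443, plus strand) and C1s1 (ENSMUSG00000038521, chr6:124530345-124542359, minus strand) are neighbours that encode the proteases of the C1 complex. C1ra had 28.6 and 29.6 CPM in control and 5.72 and 10.9 in Sox17-Erg libraries at Day 3, 165 and 238 against 23.3 and 54.3 at Day 7, and 421 and 291 against 78.8 and 65.1 CPM at 4 weeks. C1s1 had 22.01 and 14.4 against 4.40 and 5.04 CPM at Day 3, 129 and 144 against 20.7 and 38.0 at Day 7, and 388 and 267 against 61.6 and 52.5 at 4 weeks. Both genes were separated between treatments at every time point. The log2 fold change of C1ra was -1.80 ± 0.43, -2.38 ± 0.42 and -2.31 ± 0.41 (SE, n = 2 libraries per group), with edgeR adjusted p of 0.029, 0.0054 and 0.0042. For C1s1 it was -1.95 ± 0.33, -2.22 ± 0.31 and -2.52 ± 0.31, with 0.0089, 0.0018 and 0.00061. At Day 3 the call of C1ra was lost without either control library or Sox17-Erg replicate 1 of that day (adjusted p up to 0.208), and that of C1s1 without replicate 1 of either group (up to 0.091). The Day 7 value of C1ra was -3.15 without Sox17-Erg replicate 2 of that day. Of all 31-base words in the transcripts, 59.3% of those of C1ra and 33.5% of those of C1s1 also occur in other genes, C1rb and C1s2 among them, so reads could be split between copies. With each pair summed the log2 fold changes at 4 weeks were -2.31 and -2.53.

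C4b (ENSMUSG00000073418, chr17:34728380-34743882, minus strand) encodes C4, which C1s cleaves. Its level was low at Day 3, with 1.46 and 1.76 CPM in control against 0.607 and 0.431 in Sox17-Erg libraries. It stood at 13.2 and 10.8 against 1.16 and 3.08 CPM at Day 7, and at 43.7 and 27.6 against 7.26 and 7.22 CPM at 4 weeks. The groups stood apart each time, though at Day 3 the Sox17-Erg values rested on 12 and 10 counts. Its log2 fold change was -1.63 ± 0.51 (SE, n = 2 libraries per group) at Day 3, where the edgeR adjusted p was 0.067 and without either Sox17-Erg library of Day 7 became 0.020 and 0.018 and without single libraries of Day 3 up to 0.242, -2.54 ± 0.40 at Day 7 with 0.0034 and -2.30 ± 0.38 at 4 weeks with 0.0028. The Day 7 value of C4b lay between -3.41, without Sox17-Erg replicate 2 of that day, and -1.96 when single libraries were left out, and its adjusted p was 0.048 with only the 4 libraries of that day. C4a, which holds 48.3% of the words of C4b, was not analysed here, so the 2 copies could not be summed and the C4b counts may hold or lack reads that C4a shares.

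Cfb (ENSMUSG00000090231, chr17:34856374-34862518, minus strand) encodes factor B, the protease of the alternative pathway. At Day 3 the control libraries held 0.800 and 0.416 CPM and the Sox17-Erg libraries 0.607 and 0.560, from 9 to 22 counts each, and the groups overlapped. At Day 7 the values were 6.49 and 4.86 against 0.496 and 1.01 CPM, and at 4 weeks 17.1 and 8.58 against 1.03 and 2.52 CPM. A gap between the treatments was therefore present at Day 7 and at 4 weeks and was not detectable at Day 3 at this depth. On the log2 scale the difference was -0.08 ± 0.63 at Day 3 (edgeR adjusted p = 0.95), -2.95 ± 0.55 at Day 7 (0.0074) and -2.86 ± 0.52 at 4 weeks (0.0046), with n = 2 libraries per group. The Day 7 call was lost without Sox17-Erg replicate 1 of Day 7, with an adjusted p of 0.080. Without Sox17-Erg replicate 2 the values of Cfb were -3.55 at Day 7 and -3.67 at 4 weeks. A readthrough gene on the same strand, Gm20547, shares 75.5% of the words of Cfb, and with their counts summed, a choice made after seeing the data, the Day 3 value became -0.92 with an adjusted p of 0.14 and those of Day 7 and 4 weeks -2.73 and -2.49.

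Serping1 (ENSMUSG00000023224, chr2:84765387-84775444, minus strand) encodes C1 inhibitor, the fluid serpin that blocks C1r and C1s. Control libraries held 536 and 717 CPM at Day 3, then 1172 and 2262 at Day 7, then 2873 and 1799 at 4 weeks. The Sox17-Erg libraries held 83.5 and 217.9, 194 and 680, and 813 and 609 CPM. The groups did not overlap at any time point, but the replicates of Sox17-Erg stood far apart from each other at Day 3 and Day 7. Differences of -2.06 ± 0.64, -1.98 ± 0.63 and -1.72 ± 0.63 on the log2 scale (SE, n = 2 libraries per group) had edgeR adjusted p of 0.065, 0.061 and 0.081. Without Sox17-Erg replicate 2 of Day 7 the Day 7 difference was -3.19 (adjusted p = 0.018), and without replicate 1 it was -1.33 (0.294). At Day 3 and 4 weeks the adjusted p of Serping1 ran from 0.030 to 0.342 and from 0.037 to 0.295 when single libraries were left out, and the Day 3 difference was -2.91 without Sox17-Erg replicate 2. With the block within time points the adjusted p was 0.0040, 0.0026 and 0.0046, and with the Wald test of DESeq2 it passed at Day 3 (0.021) and Day 7 (0.025).

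Cd55 (ENSMUSG00000026399, chr1:130439027-130462744, minus strand) encodes decay-accelerating factor, which takes convertases apart on the cell surface. It had 18.3 and 16.6 CPM in control against 10.8 and 10.9 in Sox17-Erg libraries at Day 3, 69.3 and 80.5 against 16.7 and 21.8 at Day 7, and 67.9 and 48.1 against 43.7 and 27.0 CPM at 4 weeks. The groups were apart at every time point, most so at Day 7. Fitted differences on the log2 scale were -0.68 ± 0.25 at Day 3 (edgeR adjusted p = 0.11), -1.96 ± 0.25 at Day 7 (0.0012) and -0.72 ± 0.24 at 4 weeks (0.062), with n = 2 libraries per group. With the block the adjusted p was 0.0076 at Day 3 and 0.0025 at 4 weeks. When single libraries were left out, the 4-week value of Cd55 ran from -1.11, without Sox17-Erg replicate 1 (adjusted p = 0.025), to -0.44, without control replicate 1 (0.345), and it also passed without control replicate 2 (0.049).

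Cd59a (ENSMUSG00000032679, chr2:104095801-104115354, plus strand) encodes the surface protein that stops assembly of the membrane attack complex. Control libraries held 11.9 and 8.0 CPM at Day 3, then 14.4 and 8.68 at Day 7, then 15.6 and 12.6 at 4 weeks, and Sox17-Erg libraries 7.19 and 4.91, 13.2 and 8.74, and 19.9 and 16.0 CPM. The Sox17-Erg libraries lay below control at Day 3, between them at Day 7 and above them at 4 weeks. Its log2 fold change was -0.72 ± 0.33, -0.07 ± 0.32 and 0.35 ± 0.32 (SE, n = 2 libraries per group), with edgeR adjusted p of 0.18, 0.91 and 0.48. With the block the Day 3 value passed, at an adjusted p of 0.011.

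C3ar1 (ENSMUSG00000040552, chr6:122847138-122856161, minus strand) encodes the receptor for C3a, best known on myeloid cells. It had 13.5 and 8.74 CPM in control against 6.22 and 6.20 in Sox17-Erg libraries at Day 3, 8.87 and 13.4 against 3.78 and 5.40 at Day 7, and 0.702 and 4.07 against 0.885 and 4.63 CPM at 4 weeks. At 4 weeks replicate 1 was low in both treatments and the groups overlapped. The log2 fold change was -0.84 ± 0.77, -1.28 ± 0.78 and 0.25 ± 0.81 (SE, n = 2 libraries per group), with edgeR adjusted p of 0.51, 0.29 and 0.86. With the block the Day 3 and Day 7 values passed, at adjusted p of 0.029 and 0.0048, and the 4-week value did not.

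Over all 3 time points together, an exact permutation test of the treatment labels within time points (two-sided, 12 libraries, 216 permutations) gave p = 0.0093, the smallest it can give, for C3, C4b, C1ra, C1s1, Serping1 and Cd55. These were the 6 members whose Sox17-Erg libraries lay below control at every time point, beside 13.6% of all genes. That separation alone fixes this p at its smallest value, so the test adds nothing to it. The exact p-values are not adjusted for the number of members. The mean difference of log2 CPM (prior count 2) was -3.18 for C3, -2.12 for C4b, -2.21 for C1ra, -2.23 for C1s1, -2.02 for Serping1 and -1.12 for Cd55. For Cfb the mean difference was -1.90 and the exact permutation p 0.037, which became 0.056 without control replicate 1 of Day 3 or of 4 weeks. With same-numbered libraries taken as pairs, an exact test that flips the sign of each of the 6 paired differences gave p = 0.094 for Cfb, lower in 5 of 6 pairs, and 0.031, the smallest it can give, for the other 6 members above, each lower in 6 of 6 pairs. For Cd59a the exact permutation p was 0.56 and for C3ar1 0.30. Within 1 time point, 2 libraries per treatment allow no exact permutation p below 0.33.

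Most members rose with time in culture in both treatments. In control cells 6 of 9 members rose from Day 3 to Day 7 (edgeR adjusted p under 0.05), beside 4.70% of all genes tested, and 6 of 9 from Day 3 to 4 weeks, beside 13.9%: C3, C4b, C1ra, C1s1, Cfb and Cd55 each time. In Sox17-Erg cells 3 of 9 rose from Day 3 to Day 7 (C3, C1ra and C1s1), beside 2.04%, and 7 of 9 from Day 3 to 4 weeks, beside 15.1%, namely C3, C4b, C1ra, C1s1, Serping1, Cd55 and Cd59a. edgeR called no member lower in these comparisons, while DESeq2 called C3ar1 lower from Day 3 to 4 weeks in control cells. The Day 3 to Day 7 count in control cells dropped to 3 and 2 without control replicate 1 and 2 of Day 3, and that in Sox17-Erg cells to 0 without either Sox17-Erg library of Day 3. The shares of all genes called higher dropped in the same fits, to 0.423% and 0.366% in control and to 0.0807% and 0.124% in Sox17-Erg cells.

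From Day 3 to 4 weeks the largest rise was that of C3, with a log2 fold change of 7.22 ± 0.57 in control cells (edgeR adjusted p = 0.00017) and of 4.86 ± 0.52 in Sox17-Erg cells (0.00059). These were 149-fold and 28.9-fold, and the control value of C3 was 7.81 on the log2 scale without control replicate 1 of Day 3. C4b rose by 4.47 ± 0.43 in control and 3.80 ± 0.48 in Sox17-Erg cells on the log2 scale, C1s1 by 4.16 ± 0.34 and 3.59 ± 0.34, C1ra by 3.61 ± 0.44 and 3.10 ± 0.44, and Cd55 by 1.73 ± 0.25 and 1.70 ± 0.25. Cfb rose by 4.37 ± 0.58 in control cells, while in Sox17-Erg cells its value of 1.59 ± 0.58 had an adjusted p of 0.067, or 0.0084 with Gm20547 summed in and 0.045 without Sox17-Erg replicate 1 of 4 weeks. Serping1 stood at 1.90 ± 0.63 in control (adjusted p = 0.053) and rose by 2.24 ± 0.64 in Sox17-Erg cells (0.027). The Sox17-Erg call of Serping1 was lost without replicate 1 of Day 3 (0.145) or either library of 4 weeks (0.105 and 0.056), its value was 3.09 without replicate 2 of Day 3, and the control value passed without any 1 Sox17-Erg library of Day 3 or Day 7 (0.024 to 0.046). Cd59a, at 0.50 ± 0.32 in control (0.28), rose by 1.57 ± 0.33 in Sox17-Erg cells (0.0084), a call lost without Sox17-Erg replicate 2 of Day 3 (0.059). C3ar1 was at -2.27 ± 0.81 in control (0.068) and -1.17 ± 0.80 in Sox17-Erg cells (0.30). Without replicate 1 or replicate 2 of 4 weeks the control value of C3ar1 was -1.45 or -3.97 (adjusted p = 0.265 and 0.022), and that of Sox17-Erg cells -0.38 or -2.81 (0.784 and 0.069). From Day 7 to 4 weeks edgeR called 0 of 9 members in either treatment, beside 0.393% of all genes in control and 1.82% in Sox17-Erg cells. At an unadjusted p under 0.05 there were 5 members in each, beside 15.3% and 18.4% of all genes, and DESeq2 called 3 in control and 4 in Sox17-Erg cells, all higher, beside 1.94% and 3.77%.

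**Figure D3:**
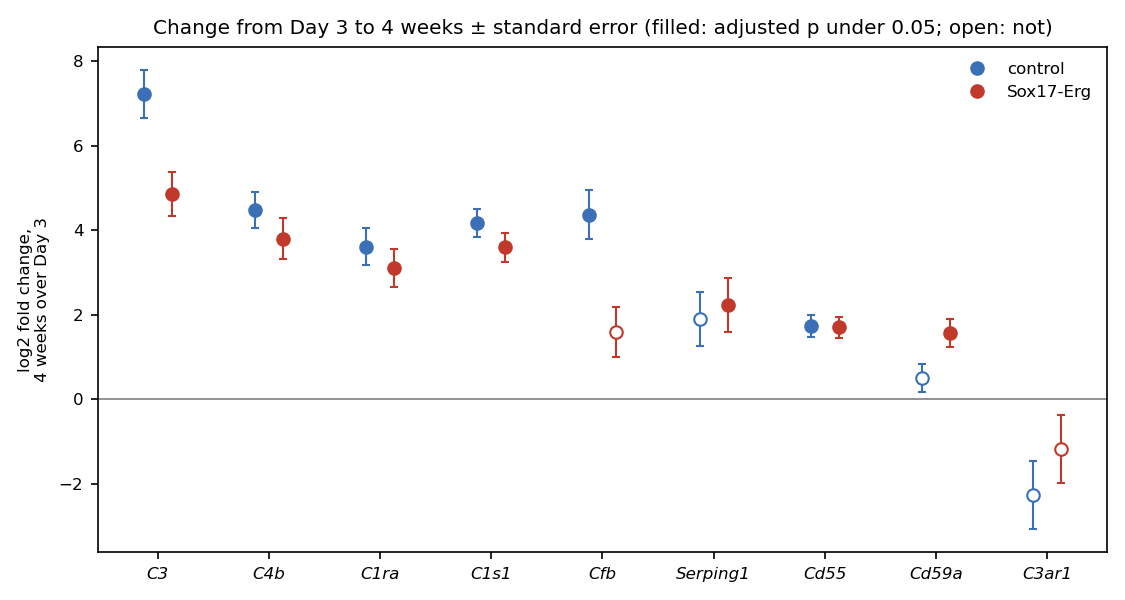
Log2 fold change from Day 3 to 4 weeks in control (blue) and Sox17-Erg cells (red), from edgeR, with bars of 1 SE and filled points where the adjusted p was under 0.05. C3 and Cfb show the widest gap between treatments, 7.22 against 4.86 and 4.37 against 1.59.

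Whether the treatment effect itself changed between time points was tested as an interaction, and edgeR called 0 of 9 members in each of the 3 comparisons of time points, beside 0.0838% of all genes for Day 3 to Day 7, 0.0387% for Day 7 to 4 weeks and 3.21% for Day 3 to 4 weeks. At an unadjusted p under 0.05 there were 3, 1 and 3 members, beside 8.91%, 6.47% and 16.9% of all genes. DESeq2 called 0, 0 and 2, the last being C3 and Cfb, beside 1.80%, 0.929% and 6.72%. For Day 3 to 4 weeks the change in effect was -2.37 ± 0.64 for C3 (edgeR adjusted p = 0.091), -2.77 ± 0.82 for Cfb (0.12) and 1.07 ± 0.46 for Cd59a (0.28). With the block within time points C3 (0.022) and Cd59a (0.020) passed for this interval, and Cd55 for Day 3 to Day 7 at -1.28 (0.030) and for Day 7 to 4 weeks at 1.23 (0.041). When single libraries were left out, the change in effect of C3 ran from -2.96 to -1.89 and passed without either Sox17-Erg library of Day 7 (0.045 each time). That of Cfb ran from -3.57 to -2.19 and did not pass, and with Gm20547 summed in it was -1.57 (0.143).

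The other complement genes, 47 in a list of which 29 were tested, had no call higher, beside 7.19%, 9.48% and 11.9% of all genes. With edgeR 4 were lower at Day 3, 7 at Day 7 and 10 at 4 weeks, beside 5.13%, 7.93% and 11.0%. Over the 29 the median was -0.36, -1.39 and -0.34 on the log2 scale, beside 0.01, 0.01 and -0.01 over all genes. Among the initiators, 10 of 16 tested, C2 is the substrate that C1s cleaves next to C4. It had 10.1 and 5.92 CPM in control against 1.62 and 1.59 in Sox17-Erg libraries at Day 3, and 67.8 and 44.7 against 7.47 and 10.5 at 4 weeks. It was lower at all 3 time points, by -2.32 ± 0.41, -2.25 ± 0.36 and -2.65 ± 0.36 on the log2 scale (edgeR adjusted p = 0.0099, 0.0037 and 0.0011). C1rl, a C1r-like protease, was lower at Day 3 (-1.62 ± 0.39, 0.030), and the protease copies C1rb and C1s2 were lower at 4 weeks (-2.37 ± 0.62, 0.024, and -3.03 ± 0.59, 0.0061), with the sharing of words given above. C1rb was also called lower at Day 3, where its Sox17-Erg libraries held 0 and 4 counts, and C1s2 at Day 7.

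Of the alternative and terminal components, 4 of 9 were tested and 0, 2 and 2 were lower at the 3 time points, beside 5.13%, 7.93% and 11.0% of all genes. Both times these were Cfd and C7. Cfd, the factor D gene, had 0 counts in both control libraries at Day 3, then 783 and 46 counts at Day 7, then 1815 and 716 at 4 weeks. It never had more than 1 count in the 6 Sox17-Erg libraries, so its fitted fold change depends on the prior count and is not given. C7, a part of the membrane attack complex, had 84 and 196 counts in control libraries at Day 7 and 1477 and 193 at 4 weeks, against 2 and 12 and then 1 and 3 in Sox17-Erg libraries, with edgeR adjusted p of 0.018 and 0.0016. At Day 3 C7 already had 5 and 8 counts in the control libraries. Cfd thus appeared in control cultures after Day 3, while C7 rose there from a low level. In the Sox17-Erg libraries C7 never had more than 12 counts.

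Of 7 fluid inhibitors 4 were tested, and Cfi, the factor I protease that inactivates C3b and C4b, was lower at Day 7 (-2.02 ± 0.45, edgeR adjusted p = 0.016) and at 4 weeks (-2.46 ± 0.46, 0.0050). Among membrane inhibitors, 6 of 8 tested, Cd46, a cofactor for factor I, was lower at every time point (-0.91 ± 0.24, -0.88 ± 0.23 and -1.21 ± 0.22, adjusted p = 0.041, 0.028 and 0.0050). Cr1l, the mouse regulator also known as Crry, was lower at Day 7 (-0.49 ± 0.15, 0.047) and 4 weeks (-0.66 ± 0.15, 0.011), and Csmd3 and Susd4 at 4 weeks (-2.75 ± 0.68, 0.019, and -3.30 ± 0.95, 0.034). Of 7 receptor genes 5 were tested, and edgeR called none at any time point. Of all genes, 5.13%, 7.93% and 11.0% were called lower and 7.19%, 9.48% and 11.9% higher.

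**Figure D4:**
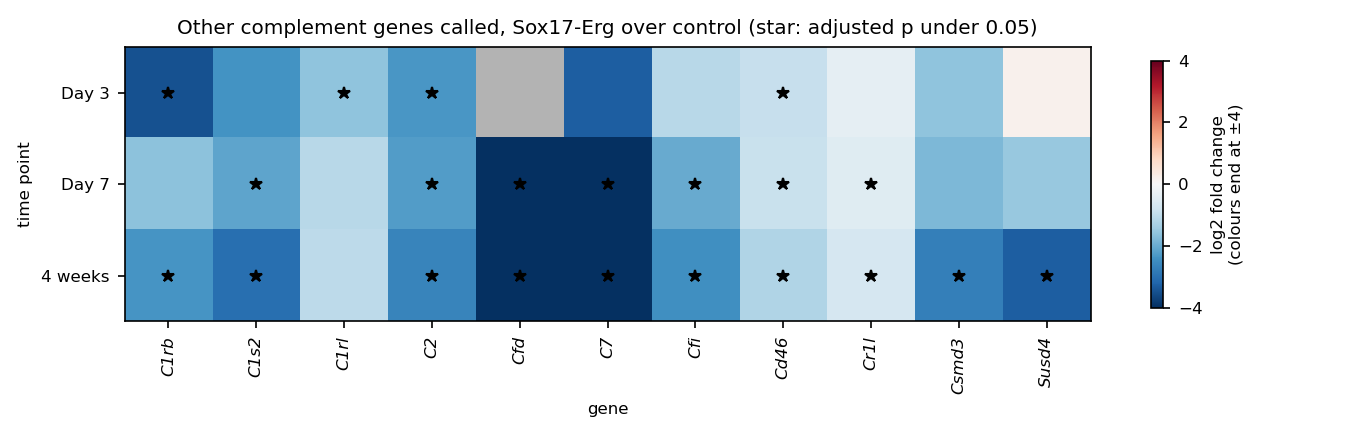
Log2 fold change of Sox17-Erg over control at the 3 time points for the other complement genes called at any of them, red higher and blue lower, with stars where the edgeR adjusted p was under 0.05 and grey where no library had more than 3 counts. Colours end at 4 in either direction. All stars stand on blue cells, among them C2 and Cd46 at all 3 time points and Cfd and C7 at Day 7 and 4 weeks.

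C3ar1 was set beside macrophage markers, since macrophages express this receptor. The CPM of 12 such markers, among them Adgre1, Lyz2 and Csf1r, summed to between 282 and 426 in control and between 256 and 294 in Sox17-Erg libraries at Day 3, to between 879 and 1343 against between 275 and 471 at Day 7, and to between 51.9 and 427 against between 71.7 and 329 at 4 weeks. No marker of the 12 was at 0 in all libraries, and edgeR called 1, 0 and 2 of them at the 3 time points. Of all genes, 7.19%, 9.48% and 11.9% were called higher and 5.13%, 7.93% and 11.0% lower. Cx3cr1 was called higher in Sox17-Erg cells at Day 3 and 4 weeks and Aif1 lower at 4 weeks, while at Day 7, where the Sox17-Erg sums were lower, no marker passed. Replicate 1 at 4 weeks was the lowest in both treatments, as it was for C3ar1. In control cells, however, the marker sum was higher at Day 7 than at Day 3 while the mean C3ar1 level was 11.1 CPM on both days. C3ar1 stood at 3.17% and 3.10% of the macrophage sum in control and 2.43% and 2.11% in Sox17-Erg libraries at Day 3. At Day 7 this share was 1.01% and 0.996% against 1.37% and 1.15%, and at 4 weeks 1.35% and 0.953% against 1.23% and 1.41%. Lyz2 alone made up 60.4% to 76.0% of the sum. Without it, a check added after the data were seen, the share at Day 3 was 9.17% and 11.8% in control against 7.03% and 8.79% in Sox17-Erg libraries. At Day 7 it was 3.10% and 4.03% against 3.48% and 3.94%. The groups thus stood apart at Day 3 with or without Lyz2, and overlapped at Day 7 without it. C1qa, a subunit of C1q that macrophages make, was singled out after its values were seen. Of the sum with Lyz2 included, it made up 8.22% and 5.41% in control against 14.8% and 9.05% in Sox17-Erg libraries at Day 3. At Day 7 its share was 8.60% and 4.24% against 10.7% and 4.89%, and at 4 weeks 3.67% and 5.60% against 6.46% and 10.5%. This share of C1qa was thus higher in Sox17-Erg libraries at Day 3 and 4 weeks, and the groups overlapped at Day 7. The part of these cells in the result was not tested.

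**Figure D5:**
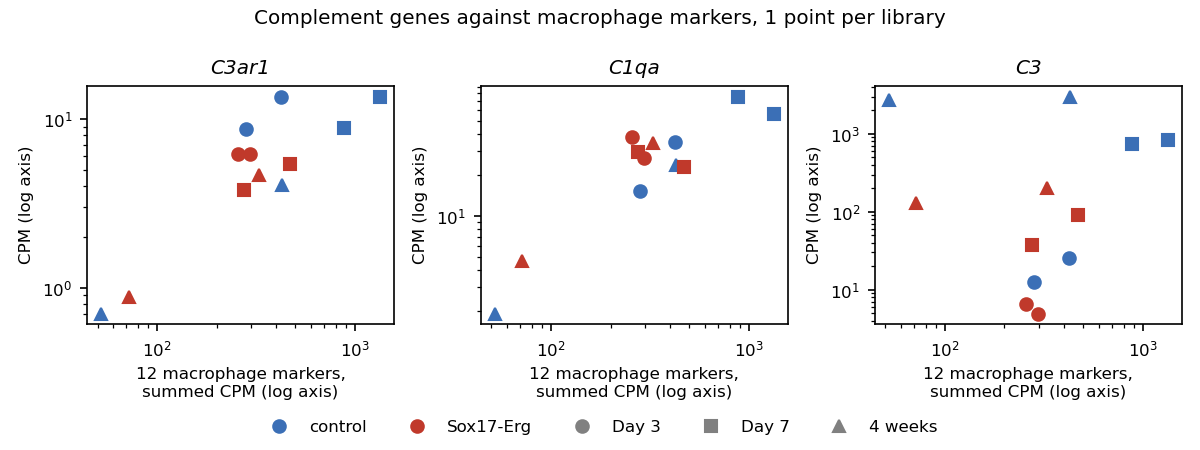
CPM of C3ar1, C1qa and C3 (log axes) against the summed CPM of 12 macrophage markers, with 1 point per library, control in blue and Sox17-Erg in red, and symbols for the time point. The 2 libraries with the lowest marker sums, 51.9 and 71.7 CPM, also have the lowest C3ar1, 0.702 and 0.885 CPM, whereas C3 in them is 2683 and 129 CPM.

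Markers of mesothelium, the sheet that covers the heart, also differed between the treatments. The CPM of 10 of them, Msln and Upk3b among them, summed to between 591 and 1256 in control against between 238 and 377 in Sox17-Erg libraries at Day 3, between 1255 and 1949 against between 435 and 498 at Day 7, and between 1899 and 3088 against between 396 and 619 at 4 weeks. edgeR called 2, 6 and 9 of the 10 lower at the 3 time points, beside 5.13%, 7.93% and 11.0% of all genes. None of the 10 was at 0 in all libraries. C3 was 2.01% and 2.14% of this sum in control and 1.76% and 2.07% in Sox17-Erg libraries at Day 3. The same share was 38.0% and 67.4% against 7.41% and 21.0% at Day 7, and 86.9% and 157% against 20.8% and 51.7% at 4 weeks. Relative to mesothelial markers C3 was therefore close between the treatments at Day 3 and lower in Sox17-Erg libraries later. Cardiomyocyte markers moved the same way, with 10 of them summing to between 647 and 1538 CPM in control and between 336 and 688 in Sox17-Erg libraries, while 10 smooth muscle and pericyte markers summed to between 579 and 3728 against between 2194 and 4813 CPM. Tnnt2 made up most of the cardiomyocyte sum, with between 526 and 1431 CPM in control and between 298 and 665 in Sox17-Erg libraries. Of the 10 cardiomyocyte markers edgeR called 2, 4 and 7 lower, beside 5.13%, 7.93% and 11.0% of all genes. The smooth muscle and pericyte list went both ways, with 2, 6 and 5 of 10 called higher by edgeR and 0, 1 and 3 lower at the 3 time points. Of all genes, 7.19%, 9.48% and 11.9% were called higher and 5.13%, 7.93% and 11.0% lower. The part of these cells in the complement values was not tested.

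Many stromal complement genes respond to cytokines, so 27 cytokine receptors and signalling genes and 14 acute phase genes were counted too. Of the 27, all tested, edgeR called 3, 6 and 9 lower at the 3 time points, beside 5.13%, 7.93% and 11.0% of all genes. It called 1 higher each time, beside 7.19%, 9.48% and 11.9%. The 27 had medians of -0.29, -0.42 and -0.46 on the log2 scale, beside 0.01, 0.01 and -0.01 over all genes. Il1r1, the interleukin 1 receptor, had 144 and 162 CPM in control and 73.2 and 104 in Sox17-Erg libraries at Day 3, and was lower at all 3 time points (-0.79 ± 0.20, -0.94 ± 0.20 and -1.06 ± 0.20, adjusted p = 0.038, 0.014 and 0.0059). Cebpa, which encodes a CCAAT/enhancer-binding protein, was lower at Day 7 (-1.36 ± 0.33, 0.021) and 4 weeks (-1.09 ± 0.32, 0.040). Il6 went the other way at Day 3 (2.39 ± 0.64, 0.042) and Day 7 (2.35 ± 0.68, 0.042), from at most 1.24 CPM in control to at most 4.70 CPM.

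Of the 14 acute phase genes 11 were tested, with 2, 4 and 3 called lower by edgeR at the 3 time points, beside 5.13%, 7.93% and 11.0% of all genes. Another 1 was called higher each time, beside 7.19%, 9.48% and 11.9%. The medians of the 11 were -0.89, -1.50 and -1.08 on the log2 scale, beside 0.01, 0.01 and -0.01 over all genes. Hp, the haptoglobin gene, rose in control libraries from 0.218 and 0.416 CPM at Day 3 to 278 and 137 at 4 weeks, against 6.09 and 7.26 CPM in Sox17-Erg libraries at 4 weeks (-4.96 ± 0.71, edgeR adjusted p = 0.0013). Lcn2, which encodes an iron-sequestering lipocalin, was lower at all 3 time points, by -2.24 ± 0.54, -3.44 ± 0.50 and -3.21 ± 0.49 (0.031, 0.0021 and 0.0019). The genes called higher were the chemokine gene Ccl2 at Day 3 (1.74 ± 0.14, 0.00042) and Day 7 (1.02 ± 0.14, 0.0015) and the pentraxin gene Ptx3, whose product binds C1q, at 4 weeks (2.45 ± 0.45, 0.0048).

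Among all tested genes, those most like each member were found by the root mean square (RMS) difference of centred log2 CPM over the 12 libraries. For C3 they were Steap4 (RMS 0.89), Angptl7 (0.91) and Alas2 (0.92). Steap4, an acute phase gene of the list, was itself lower in Sox17-Erg cells at all 3 time points (-2.99 ± 0.83, -3.27 ± 0.57 and -3.65 ± 0.56, edgeR adjusted p = 0.048, 0.0052 and 0.0020). For C4b they were Dapk2 (0.35), F830016B08Rik (0.42) and Fgl2 (0.44), for C1ra Tmem176a (0.28), Aoc3 (0.36) and Fam180a (0.37), and for C1s1 Lbp (0.48), Fam180a (0.48) and Gm14412 (0.50). Cfb was nearest to Hlf (0.41), Npr1 (0.43) and Celf4 (0.48), Serping1 to Slfn5 (0.29), Islr (0.30) and Pltp (0.32), Cd55 to Smpdl3a (0.23), Art4 (0.25) and N4bp2l1 (0.30), and Cd59a to Zdhhc15, Tgfa and Myo18a (0.24 each). C3ar1 was nearest to Myo1f (0.21), Adam8 (0.23) and Cybb (0.27). Between members, C1ra and C1s1 were closest (0.32), then C4b and C1s1 (0.40) and C4b and C1ra (0.49), while C3 and C3ar1 were farthest apart (3.70). These are descriptions over the same 12 libraries, which share treatment and time.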

How the data were processed

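RNA of 12 libraries (6 groups, 2 per group) was measured by bulk RNAseq. The authors prepared stranded mRNA libraries, demultiplexed with bcl2fastq 2.20.0 per the submitters' processing notes, trimmed high GC content with BBDuk and quantified reads with Salmon, and the deposited values are estimated counts per gene, rounded to whole numbers and not scaled for library size. The labels name mm10, and the Salmon version and annotation are not given in the sources used here. Symbols, positions and shared 31-base words came from GENCODE M21 (GRCm38), which held 35493 of the 35727 genes, and promoters from RefSeq (GRCm38.p6).

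Groups were taken from the labels. All 12 libraries entered 1 fit by edgeR 4.0.16 (R 4.3.3): TMM factors, filterByExpr (minimum count 10, minimum total 15), 1 mean per group, 6 residual degrees of freedom and quasi-likelihood tests with Benjamini-Hochberg adjustment over the 15506 genes tested. A gene was called at an adjusted p under 0.05. For single members the treatment labels were permuted exactly, within time points, and as an alternative the signs of the differences of same-numbered pairs were flipped. Same-numbered libraries of the 2 treatments deviated together at each time point (r = 0.19, 0.30 and 0.17 across genes), so a fit with the number as a block within time points is given beside results it changes. Those of Day 3 and Day 7 also did so within a treatment (r = 0.17 in control and 0.22 in Sox17-Erg cells). Pairs of either day with 4 weeks ran from r = -0.11 to -0.05. Whether the number marks a shared isolation is not given in the sources used here. The fit was checked on simulated counts.

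The members and gene lists were chosen with earlier results of these data known. All members are named, as are the 3 genes nearest to each member in centred log2 CPM (prior count 2). Genes of the complement, cytokine and acute phase lists could be named where called in a treatment comparison, and not every such gene is. Alternatives were DESeq2 1.42.0, its size factors, other filters and thresholds, replicate blocks, single time points, summed gene copies, another prior count and leaving out each library. With 2 libraries per group an SE is itself imprecise, and genes of a few counts, such as Cfb at Day 3, carry counting error on top.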

Additional observations from a re-analysis of the deposited data

How the results depend on the processing

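The Day 3 comparison had 3 members called lower: it was 5 with DESeq2, 6 with no filter on low counts, 1 at an adjusted p under 0.01, 5 with the number as a block over all libraries, 7 with the replicate block within time points and 5 with only the 4 libraries of that time point. The share of all genes called lower at Day 3 in these fits was 8.20%, 5.19%, 0.755%, 6.64%, 10.4% and 6.88%, beside 5.13%. Leaving out 1 library gave 0 to 5 at Day 3, 5 to 7 at Day 7, 5 to 6 at 4 weeks, 2 to 6 for control cells from Day 3 to Day 7, 0 to 4 for Sox17-Erg cells over that interval, 6 to 7 for either treatment from Day 3 to 4 weeks, 0 to 1 for either treatment from Day 7 to 4 weeks, and 0, 0 and 0 to 1 for the 3 changes in effect. In these fits the share of all genes called lower ran from 0.410% to 6.19%, 1.84% to 7.99% and 4.01% to 10.6% at the 3 time points. The share called higher ran from 0.366% to 5.47% and 0.0807% to 2.46% in control and Sox17-Erg cells over the first interval and from 5.64% to 14.1% and 7.69% to 16.4% over the whole time. For Day 7 to 4 weeks up to 0.396% and 1.85% were called in either direction, and up to 0.0620%, 0.0434% and 2.97% for the changes in effect. From Day 3 to Day 7 in Sox17-Erg cells, 3 members became 5 with DESeq2, 7 with no filter and 0 at the stricter threshold of 0.01, beside 6.13%, 4.31% and 0.0709% of all genes called higher. Over the interval between Day 7 and 4 weeks, 0 became 3 with DESeq2 and 6 with no filter in control, and 4, 5 and, with the block over all libraries, 1 in Sox17-Erg cells. With no filter 4.06% and 5.53% of all genes were called there, and with that block 2.62% in Sox17-Erg cells. For the changes in effect, 0 became 3 with no filter and 1 with the replicate block within time points from Day 3 to Day 7, 1 and 1 from Day 7 to 4 weeks, and 2 and 2 from Day 3 to 4 weeks, where DESeq2 gave 2 and the block over all libraries 1. The shares of all genes with no filter were 1.76%, 0.954% and 4.59%, with the block within time points 0.845%, 0.213% and 6.89%, and with the block over all libraries 4.00% for the last. The cause of these shifts was not tested.

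Directions turned only for values that passed no test. Without single libraries Cfb at Day 3 ranged from -0.49 to 0.48, Cd59a at Day 7 from -0.40 to 0.32 and C3ar1 at 4 weeks from -1.40 to 1.97 on the log2 scale. The change in effect from Day 3 to 4 weeks ranged from -0.85 to 0.042 for C1ra, -0.15 to 1.19 for Serping1, -0.39 to 0.26 for Cd55 and -0.55 to 2.85 for C3ar1, and for Cd55 it was 0.00014 with DESeq2 and 0.019 with a filter of 1 CPM in 4 libraries. For Cfb the mean difference over the time points ranged from -2.11 to -1.69 without single libraries, and as pairs, added after seeing the data, it was -1.90 with p = 0.094 (exact). Over the shorter intervals, members that turned under at least 1 alternative numbered 2 in control and 1 in Sox17-Erg cells from Day 3 to Day 7, 1 and 1 from Day 7 to 4 weeks, and 2 and 7 for the change in effect over these 2 intervals, with Serping1 from -1.09 to 0.94 over the first. The other differences between treatments, changes over time and changes in effect of the members kept their direction, and 24 of the 27 nearest genes were the same with a prior count of 0.5. Depth limits Cfb and C4b at Day 3, where Sox17-Erg libraries held 10 to 13 counts.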
